A study of Rattus norvegicus with 12 samples.

Results

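Of 12777 probe sets with 1 gene symbol on the RAE230A rat array, 14 had a signal of at least 400 in all 6 arrays of tumor (GP7TB) liver cells and of at most 100 in all 6 arrays of normal (WB-F344) liver cells. These 14 probe sets stood for 14 genes: Cd44, Il33, Kcnn4, Loxl1, Mmp3, Nppb, Ocm, P2ry2, Rec114, Serpinb2, Tes, Tpd52l1, Tubb2a and Vcan. Symbols starting with Col, Itg, Lam, Slc, Rab or Igfbp were left out by the rule, although 0 probe sets of those families met the values. Among all 15866 probe sets that are not controls, 19 (0.12%) met them, and the other 5 carried several symbols (1) or none (4). The opposite pattern, high in normal and low in tumor cells, was met by 29. Because the contrast of tumor with normal cells chose the genes, levels in the 2 cell types are described below without a test, and tests are given only for arginine within the tumor cells. The rule did not use that contrast, but it asked for 400 or more in both media, so a gene that was low in 1 tumor culture could not enter. Plau, which encodes urokinase, is named here after its values were seen, since it entered with a tumor limit of 300 or when arginine-deficient array 8 was left out.

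WB-F344 is a diploid epithelial line that was isolated from an adult male Fischer-344 rat's liver. GP7TB was obtained from WB-F344 by brief, repeated treatment with the mutagen N-methyl-N-nitro-N-nitrosoguanidine, through clonal subpopulations, and is tumorigenic in rats of the same strain. A single derived line therefore stood for transformation. Both were grown to about 80% confluence and then held for 18 hours in a custom Chee's Essential Medium with 0.168 g/l L-arginine HCl (arginine-sufficient) or with none added (arginine-deficient), in each case with fetal bovine serum that had not been dialyzed. There were 3 independent cultures and 3 arrays in each of the 4 groups, run as 3 experiments per cell type with 1 sufficient and 1 deficient culture each. In the array numbering, odd numbers are arginine-sufficient and even numbers are arginine-deficient, with normal arrays 1 to 6 and tumor arrays 7 to 12 in consecutive pairs.

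The values were Microarray Suite 5.0 signals on a linear scale, scaled to a common mean on each array. Signals in the upper 54% of an array were counted as expressed, which set a threshold between 146.9 and 191.3. Normal and tumor arrays were scanned on different days and came from different chip lots, so cell type, scan day and lot cannot be told apart. Within the tumor arrays the scan day was shared, and 2 lots were each split between sufficient and deficient arrays. The tumor arrays of experiments 1 and 3 came from cells treated with trypsin before the custom medium and those of experiment 2 from cells that were not, with the same handling for both arrays of an experiment. In bulk RNA, fewer cells that carry a transcript and less transcript per cell cannot be told apart. Hepatocyte markers were low in both lines. Of 14 on the array, 12 were below the threshold in every normal array and 7 in every tumor array, with a summed signal of 794.7 to 1276 in normal and 1238 to 1645 in tumor arrays. Afp, a fetal liver protein, was below it in all 12 arrays. Vim, the mesenchymal filament vimentin, and Krt8, an epithelial keratin, were above it in all 12, whereas Krt18 and Krt19 were below it in all 12. Of 14 fibroblast and mesenchymal markers, 6 were below the threshold in every normal and 7 in every tumor array. Their summed signal was 49800 to 69700 in normal and 23520 to 40200 in tumor arrays. Of 11 biliary and liver progenitor markers, 6 were below the threshold in every normal and 6 in every tumor array. Their summed signal was 7222 to 14160 in normal and 7981 to 12380 in tumor arrays. Of 13 macrophage and leukocyte markers, 11 were below the threshold in every normal and 9 in every tumor array, and their summed signal was 1391 to 1836 in normal and 1417 to 2596 in tumor arrays. Of 7 endothelial markers, 6 and 5 were below it in every normal and every tumor array, with a summed signal of 324.7 to 769 in normal and 756.2 to 967.8 in tumor arrays. Their part in the results was not tested.

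The 14 genes are grouped here by the known roles of their products. Hyaluronan, a sugar polymer of the matrix, is bound by the receptor Cd44 and the proteoglycan Vcan, while the metalloproteinase Mmp3 degrades matrix proteins, Loxl1 crosslinks elastin and Serpinb2 inhibits the plasminogen activator urokinase. Il33 and Nppb encode signaling proteins, P2ry2 and Kcnn4 a nucleotide receptor and a potassium channel, and Ocm, Tubb2a, Tes, Tpd52l1 and Rec114 intracellular proteins. Arginine is needed for protein synthesis and is also the source of nitric oxide and polyamines, and cells deprived of an amino acid alter many transcripts.

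Promoters of 5 members are shown as examples of how the starts differed in sequence. The 5 are among the 6 members that passed the arginine test when the experiment was a block, and the other is Vcan. The 250 bases before the RefSeq start (GRCr8) are given 5′ to 3′ on the gene's own strand. Capitals mark matches, on either strand, to TATAAA (the core of the TATA box), TGANTCA (the AP-1 element), GGGCGG (the GC box) and CACGTG (an E box). No 2 of the marked matches overlapped.
Mmp3, chr8:12925031-12925280, plus strand: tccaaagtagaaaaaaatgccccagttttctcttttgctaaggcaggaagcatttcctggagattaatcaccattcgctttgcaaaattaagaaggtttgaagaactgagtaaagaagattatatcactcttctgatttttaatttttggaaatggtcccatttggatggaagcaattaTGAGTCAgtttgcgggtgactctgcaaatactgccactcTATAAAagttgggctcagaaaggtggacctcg
Serpinb2, chr13:24055771-24056020, plus strand: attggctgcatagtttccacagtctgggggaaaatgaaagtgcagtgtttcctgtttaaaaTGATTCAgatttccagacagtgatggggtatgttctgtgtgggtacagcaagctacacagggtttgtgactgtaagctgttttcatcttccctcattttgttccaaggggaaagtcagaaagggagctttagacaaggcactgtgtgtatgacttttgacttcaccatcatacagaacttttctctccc
Il33, chr1:237134696-237134945, plus strand: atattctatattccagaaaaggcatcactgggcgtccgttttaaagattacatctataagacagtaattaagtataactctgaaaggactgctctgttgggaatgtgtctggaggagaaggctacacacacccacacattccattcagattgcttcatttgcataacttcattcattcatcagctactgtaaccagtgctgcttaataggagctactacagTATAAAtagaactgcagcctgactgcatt
P2ry2, chr1:164779489-164779738, minus strand: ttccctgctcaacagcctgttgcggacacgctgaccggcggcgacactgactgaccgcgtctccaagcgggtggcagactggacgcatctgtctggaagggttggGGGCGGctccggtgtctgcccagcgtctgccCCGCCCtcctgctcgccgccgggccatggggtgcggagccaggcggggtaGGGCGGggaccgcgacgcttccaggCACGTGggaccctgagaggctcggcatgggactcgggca
Nppb, chr5:163699758-163700007, plus strand: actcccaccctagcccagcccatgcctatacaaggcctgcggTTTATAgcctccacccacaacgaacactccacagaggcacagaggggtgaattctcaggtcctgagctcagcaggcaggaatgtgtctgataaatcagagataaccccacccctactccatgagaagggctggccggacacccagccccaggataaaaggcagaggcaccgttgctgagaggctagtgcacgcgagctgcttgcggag

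Mmp3 held TATAAA 32 bases and TGANTCA 71 bases before its start, and Serpinb2 held TGANTCA 189 bases before its own. The Il33 promoter shown is that of the second of 2 starts in RefSeq, with TATAAA 29 bases before it. The promoter of the first start had no match to TATAAA, and which start these cells used was not tested. P2ry2 had no TATAAA but 3 matches to GGGCGG, 145, 114 and 64 bases before the start, and CACGTG at 39. In Nppb the match to TATAAA lay 208 bases before the start and on the opposite strand. RefSeq promoters of 300 bases (250 before and 50 after the start) were found for 13 of the 14 genes, in 15 sequences. TGANTCA was present in 3 of 13 genes (Mmp3, Ocm and Serpinb2) and in 7.33% of all 33469 promoters. TATAAA was present in 4 (Il33, Mmp3, Nppb and Tubb2a) and in 14.2% of all promoters. GGGCGG was found in 5 genes against 33.1% of promoters, and CACGTG in 2 against 6.42%. Other motifs searched included CCAAT in 6 genes (37.5% of promoters), TGACGTCA in 1 (1.83%) and AGGTCA in 1 (16.2%). These motif shares count all promoters rather than genes, and they were not computed for the promoters of genes on the array. A CpG ratio, observed over expected, of at least 0.6 was reached by 6 of the 15 member promoters, by 34.4% of all promoters and by 64.7% of the 9466 promoters of genes on the array. The matches are descriptions of the sequence only.

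Across the 14 probe sets the normal signals ran from 2.0 to 85.1 and the tumor signals from 426.3 to 5392.8. No normal array reached the expressed threshold for any of them. Since the normal signals were below the threshold, a tumor excess is given as a lower bound, the tumor group's mean over the normal group's mean with each array raised to its threshold, both as means of log2 signals. With arginine this bound ran from at least 3.32-fold for Mmp3 to at least 22.3-fold for Ocm.

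**Figure D1:**
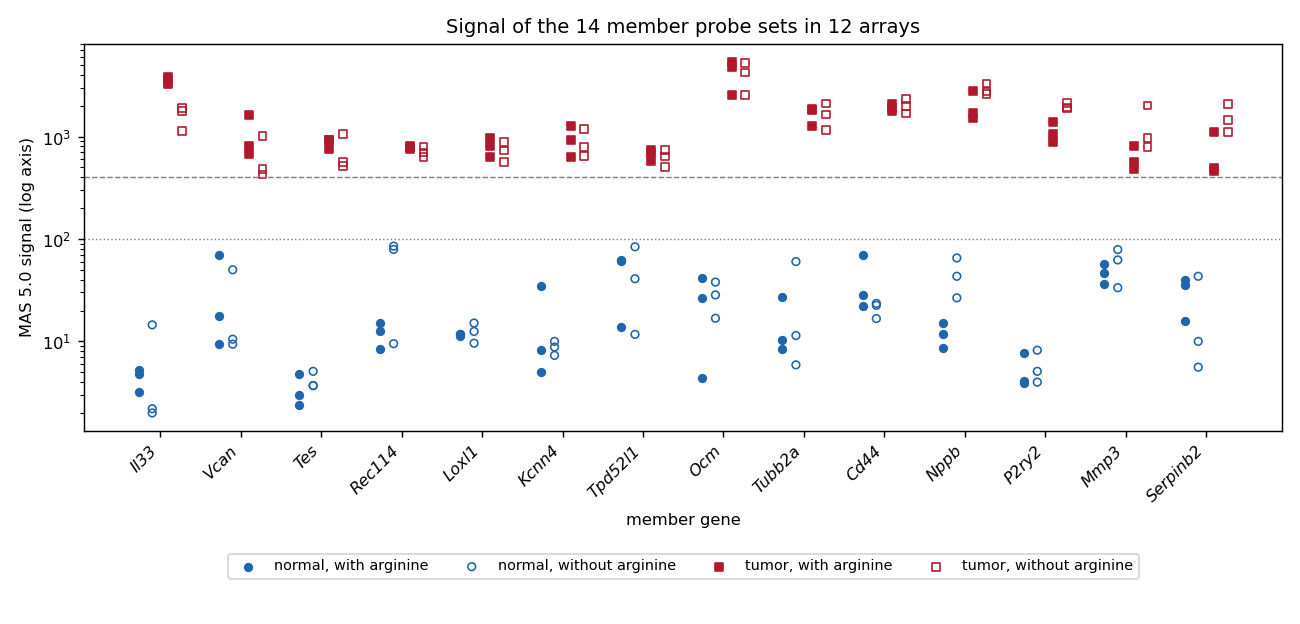
Microarray Suite 5.0 signals (log axis) of the 14 probe sets, with 1 point per array, for normal cells (blue circles) and tumor cells (red squares) with arginine (filled) and without it (open). The dashed and dotted lines are the limits of 400 and 100 that chose the genes, and the normal points end at 85.1 while the tumor points begin at 426.3.

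Near the tumor limit, the lowest tumor signals just inside it were 426.3 for Vcan, 456.1 for Serpinb2, 483.8 for Mmp3, 505.6 for Tpd52l1 and 512.0 for Tes. Just outside it were Pparg (378.8), Casp1 (373.6), Lyve1 (354.5), Plscr1 (353.6) and Hoxa10 (351.3). The highest normal signals just inside the other limit were 85.1 for Rec114, 83.8 for Tpd52l1, 78.8 for Mmp3, 70.4 for Cd44 and 69.5 for Vcan. Just beyond it were Cyp3a9 (100.8), Rhox5 (103.7), Crabp2 (106.6), Npw (109.2) and Tpm2 (114.6), so that genes left out by a few signal units included some with strong tumor signals, such as Cyp3a9 with at least 3594.5 in every tumor array.

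Of the 14 genes, 1 fell and 0 rose in tumor cells without arginine at an adjusted p under 0.05 (limma on the 6 tumor arrays, Benjamini-Hochberg adjustment over 8754 probe sets, n = 3 arrays per group). All 14 passed the filter on low signals, which their high tumor signals ensured. The 1 member is 7.14% of the 14, and of all probe sets tested 2.35% were called (1.31% higher and 1.04% lower without arginine). When the experiment entered the fit as a block, 6 members (42.9%) were called, 4 higher and 2 lower, against 15.2% of all probe sets, of which 7.24% were higher and 7.92% lower. A fit of all 12 arrays called 0 members, with 1.91% of 9741 probe sets called and an unadjusted p under 0.05 for 1 member. The unadjusted p was under 0.05 for 5 members in the tumor arrays without the block. The members were chosen for high tumor signals, and these shares of all probe sets are not matched for signal. Without the block, the share called was 0.826% with no filter on low signals and 3.65% among probe sets in the highest 40%. The median log2 change of the 14 was -0.09, beside -0.04 for all probe sets tested.

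Among the signaling proteins, Il33 was the gene that fell. Il33 encodes interleukin-33, a nuclear cytokine of the interleukin-1 family that is released from damaged cells. Its signal (probe set 1373970_at) was 3773.1, 3553.4 and 3222.4 in tumor arrays 7, 9 and 11 with arginine and 1129.9, 1774.6 and 1886.4 in arrays 8, 10 and 12 without it. The 2 groups did not overlap, and each deficient culture lay below its own sufficient culture. The log2 change was -1.17 ± 0.21 (SE, n = 3), a signal 2.25-fold higher with arginine (limma adjusted p = 0.0310, and 0.00263 with the experiment as a block). A second Il33 probe set (1389581_at) fell by 1.12 ± 0.22 on the log2 scale (limma adjusted p = 0.0409). That set missed the rule because 3 normal arrays were above 100, up to 186.5, while its tumor signals were 870.6 to 3110.5. In normal cells the first set read 5.3, 4.8 and 3.2 with arginine and 2.2, 2.0 and 14.5 without it. The tumor mean without arginine was 1597 ± 408 (SD, n = 3). The call was lost when 1 of 4 arrays was left out: without array 7, 9, 10 or 11 the limma adjusted p was 0.0571 to 0.171, with log2 changes of -1.27 to -1.12, and in the fit of all 12 arrays it was 0.388.

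Nppb, which encodes B-type natriuretic peptide, a hormone released by strained heart muscle, moved the other way in each experiment (probe set 1367616_at). It read 1506.9, 1713.5 and 2773.3 with arginine and 2591.8, 2749.4 and 3296.9 without it. The groups overlapped, because the third sufficient culture was above the first and second deficient cultures. The log2 change of 0.57 ± 0.23 passed only with the experiment as a block (limma adjusted p = 0.249, and 0.0188 with the block). In normal cells it read 15.0, 11.7 and 8.6 with arginine and 65.2, 26.6 and 43.2 without it, all below the expressed threshold. The 2 normal groups of Nppb did not overlap. The share of all probe sets with such a separation in normal cells was not counted, so nothing is drawn from it.

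P2ry2 encodes a G protein-coupled receptor for extracellular ATP and UTP (probe set 1368940_at). Its tumor signals were 880.0, 1062.7 and 1397.3 with arginine and 1913.5, 1878.4 and 2112.0 without it, so every deficient culture was above every sufficient culture. The log2 change was 0.85 ± 0.19 (limma adjusted p = 0.0613, and 0.00427 with the experiment as a block). In normal cells it was 7.7, 4.1 and 3.9 with arginine and 5.1, 4.0 and 8.2 without it. Kcnn4, the calcium-activated potassium channel KCa3.1, gave 635.5, 919.4 and 1279.5 with arginine and 645.7, 787.3 and 1191.0 without it (1368930_at). These groups overlapped almost fully, with a log2 change of -0.10 ± 0.30, but the first experiment was lowest in both media. P2ry2 and Kcnn4 were at 8.2 or less and at 35.1 or less in normal cells.

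Of the matrix enzymes Mmp3 and Loxl1 and the urokinase inhibitor Serpinb2, 2 were higher without arginine in all 3 experiments. Serpinb2 (1368487_at), also known as plasminogen activator inhibitor 2, read 1112.5, 456.1 and 491.8 with arginine and 2084.1, 1459.5 and 1114.1 without it. The groups did not overlap but were separated only by the step from 1112.5 to 1114.1. Its log2 change was 1.25 ± 0.36 (limma adjusted p = 0.111, and 0.00158 with the experiment as a block). Mmp3 (1368657_at), stromelysin-1, read 804.6, 483.8 and 560.9 with arginine and 2012.9, 964.1 and 784.5 without it. It was higher in each deficient culture than in its partner, although the groups overlapped, with a log2 change of 0.93 ± 0.35 (limma adjusted p = 0.201, and 0.00721 with the block). Loxl1 (1388902_at) read 630.8, 801.4 and 959.9 with arginine and 731.4, 567.2 and 886.9 without it. The direction of Loxl1 differed between experiments, and the log2 change was -0.13 ± 0.22. Normal cells gave 33.4 to 78.8 for Mmp3, 5.6 to 43.2 for Serpinb2 and 9.6 to 15.1 for Loxl1.

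The gene lists were chosen with earlier results of these data known, so their shares are descriptions only. A list of secreted proteases and inhibitors that holds Mmp3 and Serpinb2 had 16 genes tested in tumor cells. None of the 16 rose (1.31% of all probe sets did) and 2 fell, or 12.5% against 1.04% of all probe sets. With the block, 5 of the 16 rose, Mmp3 and Serpinb2 among them, and 3 fell, against 7.24% and 7.92% of all probe sets. The serine protease Prss23 fell by 2.31 ± 0.24 on the log2 scale (limma adjusted p = 0.00588), and Plau, which encodes urokinase, the target of Serpinb2, fell by 1.53 ± 0.20 (limma adjusted p = 0.0156). The median of the 16 was 0.18. In a list of 23 tested growth factors, cytokines and receptors, none rose and 2 fell (8.70% against 1.04% of all probe sets), with a median of -0.04. With the block 4 rose and 2 fell. Tgfb3, a transforming growth factor, fell by 1.05 ± 0.17 (limma adjusted p = 0.0211) and Csf1, the macrophage growth factor, fell by 1.04 ± 0.17 (limma adjusted p = 0.0219). These 2 lists were picked for having calls, and no gene of the other lists passed without the block. Those lists included 12 tested cell adhesion and junction genes and 14 tested drug and aldehyde metabolism enzymes.

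Of the hyaluronan-binding pair, Vcan was lower without arginine in every experiment and Cd44 was lower in 2 of 3. Cd44 (1368921_a_at) read 1897.5, 1777.3 and 2098.7 with arginine and 2326.5, 1679.4 and 1976.7 without it. These values overlapped, and the log2 change of 0.04 ± 0.17 did not pass (limma adjusted p = 0.934). Its other probe set (1387952_a_at) gave -0.09 ± 0.18 and was kept out by normal signals of up to 166.9, against 3309.2 to 4766.2 in tumor cells. Vcan (1371232_a_at), versican, read 1620.4, 812.7 and 671.8 with arginine and 1006.3, 484.4 and 426.3 without it. Vcan was lower in the deficient culture of all 3 experiments by nearly equal log2 amounts, -0.69, -0.75 and -0.66, although the groups overlapped. The log2 change was -0.70 ± 0.40 (limma adjusted p = 0.411, and 0.00801 with the experiment as a block). Other Vcan probe sets gave -1.10 ± 0.46 (1388054_a_at, adjusted p = 0.255, and 0.00241 with the block), -1.14 ± 0.29 (1388142_at, limma adjusted p = 0.0833, and 0.00268 with the block) and -0.56 ± 0.36 (1388265_x_at, limma adjusted p = 0.470, and 0.153 with the block). Another, 1371233_at, was at 38.9 or less in all arrays and was not tested. Vcan transcripts are known to be spliced in several forms.

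**Figure D2:**
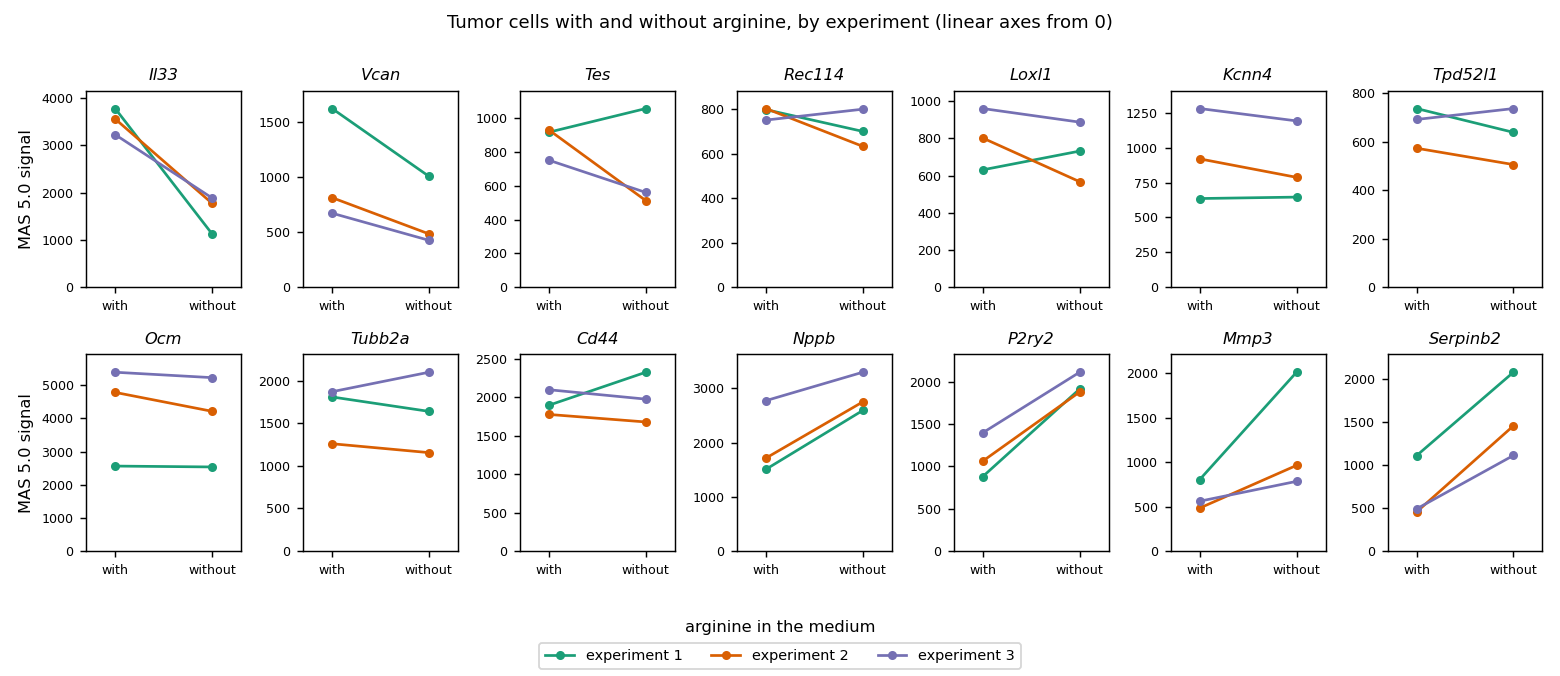
Microarray Suite 5.0 signals of the 14 genes in the 6 tumor arrays (linear axes from 0, each with its own range), with a line joining the arginine-sufficient and arginine-deficient culture of each of the 3 experiments. Lines slope down for Il33 and Vcan and up for Nppb, P2ry2, Mmp3 and Serpinb2 in all 3 experiments, and the lines of Ocm and Kcnn4 lie flat at different heights.

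None of the genes for intracellular proteins passed the test for arginine. Ocm encodes oncomodulin, a calcium-binding protein of the parvalbumin family known from tumors and fetal tissue, and its transcription in rat tumors is known to start in a retroviral repeat. It read 2562.8, 4784.7 and 5392.8 with arginine and 2536.3, 4215.0 and 5230.1 without it (1370477_at), so that the cultures of an experiment were close to each other while the first experiment lay below the other 2. Its log2 change was -0.08 ± 0.34. Tubb2a (1373718_at), a beta-tubulin, read 1808.2, 1259.3 and 1870.0 with arginine and 1639.2, 1155.0 and 2098.4 without it, with a log2 change of -0.03 ± 0.25. Because beta-tubulin genes are near-identical in sequence, and RefSeq lists Tubb2b as another name of this gene, the signal of Tubb2a may include a paralog. A separate gene named Tubb2b lies close by, and its own probe set read 20.3 to 130.5 in normal and 61.8 to 185.4 in tumor arrays. The part of any paralog in the signal was not tested.

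Tes encodes testin, a LIM-domain protein of focal adhesions (1389409_at). It read 915.9, 928.6 and 750.2 with arginine and 1055.5, 512.0 and 560.2 without it. The first experiment differed in direction from the other 2, and the log2 change was -0.36 ± 0.27 (limma adjusted p = 0.542). Tpd52l1, of the tumor protein D52 family (1372626_at), read 736.4, 572.9 and 691.4 with arginine and 638.3, 505.6 and 736.3 without it, a log2 change of -0.10 ± 0.19. Rec114, which takes part in the DNA breaks of meiotic recombination (1372387_at), read 798.2, 803.0 and 751.2 with arginine and 700.4, 633.3 and 800.0 without it, a log2 change of -0.15 ± 0.15. Both overlapped between groups. The Rec114 gene adjoins the end of Nptn in RefSeq, so the identity of that signal is uncertain. Adjusted p-values of the 8 members not called in either fit ran from 0.542 to 0.968 (limma).

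Without arginine, 4 members were higher in all 3 experiments (Mmp3, Nppb, P2ry2 and Serpinb2), a direction shared by 22.3% of all probe sets tested. Another 3 were lower in all 3 (Il33, Vcan and Ocm), as were 29.1% of all probe sets. The remaining 7 changed direction between experiments. By the stricter measure of groups that did not overlap, P2ry2 and Serpinb2 were higher (10.3% of all probe sets) and Il33 was lower (14%), 3 of 14 against 24.3% of all probe sets in either direction, while 11 members overlapped.

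**Figure D3:**
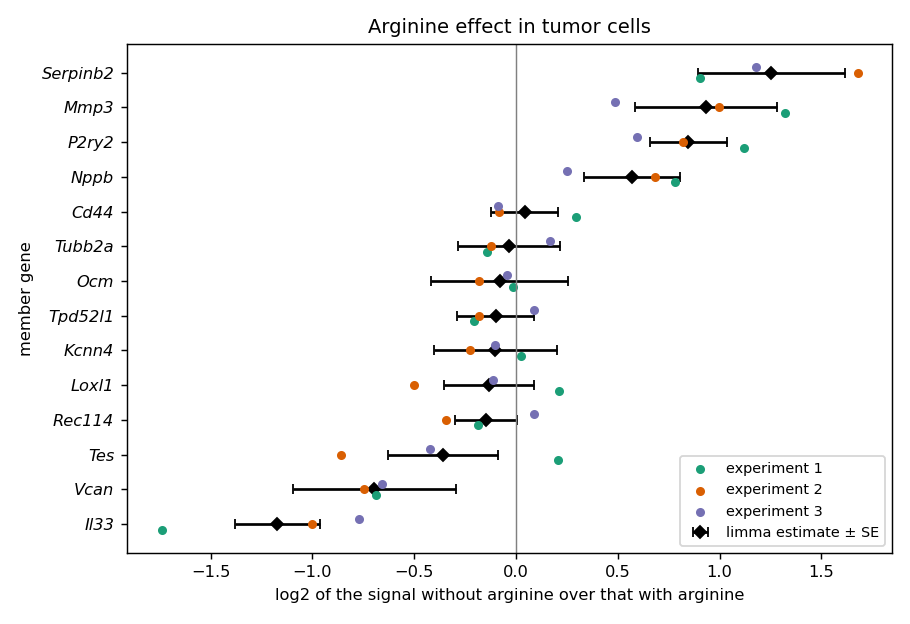
Log2 of the signal without arginine over that with arginine in tumor cells, for the 3 experiments (colored points) and as the limma estimate with its standard error (black diamonds, n = 3 arrays per group). Only the estimate of Il33, at -1.17, passed an adjusted p under 0.05 without the experiment as a block.

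Differences between experiments were as large as those with arginine for several members. The mean signal of the 2 cultures of an experiment was 2550, 4500 and 5311 for Ocm in experiments 1, 2 and 3, and 641, 853 and 1235 for Kcnn4. Vcan ran the other way, with 1313, 648.5 and 549, as did Serpinb2 with 1598, 958 and 803 and Mmp3 with 1409, 724 and 673. Experiment 1 thus held the lowest level of Ocm and Kcnn4 and the highest of Vcan, Serpinb2 and Mmp3. Over the 14 genes it was the lowest experiment for 5 and the highest for 5. The range between experiments reached 1.25 log2 units for Vcan, 1.06 for Ocm and 1.04 for Serpinb2, and was below 1 for the other 11. After the mean of each medium was removed, the log2 signals of Vcan and Ocm correlated at -0.99 over the 6 tumor arrays, those of Ocm and Serpinb2 at -0.96, those of Tubb2a and Tpd52l1 at 0.98 and those of P2ry2 and Nppb at 0.97. These 6 points are 3 pairs that share an experiment, and the correlations are descriptions picked from all pairs of members.

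The 14 genes lay on 9 chromosomes. Chromosome 1 held 4 (Il33, Kcnn4, P2ry2 and Tpd52l1), or 28.6% of the members against 12.8% of the 10378 array genes placed by RefSeq. On chromosome 8 there were 3 (Loxl1, Mmp3 and Rec114), or 21.4% against 5.78%. Vcan, Cd44, Tes, Nppb, Ocm, Serpinb2 and Tubb2a were alone on chromosomes 2, 3, 4, 5, 12, 13 and 17. Of all pairs on a chromosome only Loxl1 and Rec114 were close, with 4 protein-coding genes between them, whereas every other pair had at least 663 between them.

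The genes between Loxl1 and Rec114 did not all share their pattern. Insyn1 read 31.4 to 146.7 in normal and 338.5 to 540.4 in tumor cells, without overlap. Cd276, an immune checkpoint protein, read 431.3 to 678.2 and 336.7 to 529.5, and Nptn, the adhesion protein neuroplastin, read 2372.2 to 3211.9 and 2601.9 to 3565.7. The last 2 overlapped between the cell types, and the fourth gene, Tbc1d21, was not on the array.

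Within 5 protein-coding genes on either side of a member, 79 other genes were measured. With signals raised to the expressed threshold, 9 of them (11.4%) were at least 2-fold higher in tumor than in normal cells, beside 441 of 10411 (4.24%) of all array genes, and 2 (2.53%) were at least 2-fold lower, beside 6.11%. No test was made of these shares, since the neighbors follow from the choice of members. Nppb had 3 higher neighbors, Mfn2, 2510039O18Rikl and Agtrap, and Tes had 2, Cav2, a caveolin, and Capza2, which caps actin filaments. The others were Baiap2l1 near Ocm, Serpinb6a near Tubb2a, Insyn1 and Serpinb7. Serpinb7, a protease inhibitor of the same family, lies next to Serpinb2 and read 6.2 to 19.3 in normal and 256.7 to 587.1 in tumor cells, so that it stayed out of the set only through tumor signals under 400. The 2 lower neighbors were Plod1, a collagen-modifying enzyme near Nppb, and Dync2h1, a dynein of cilia near Mmp3.

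**Figure D4:**
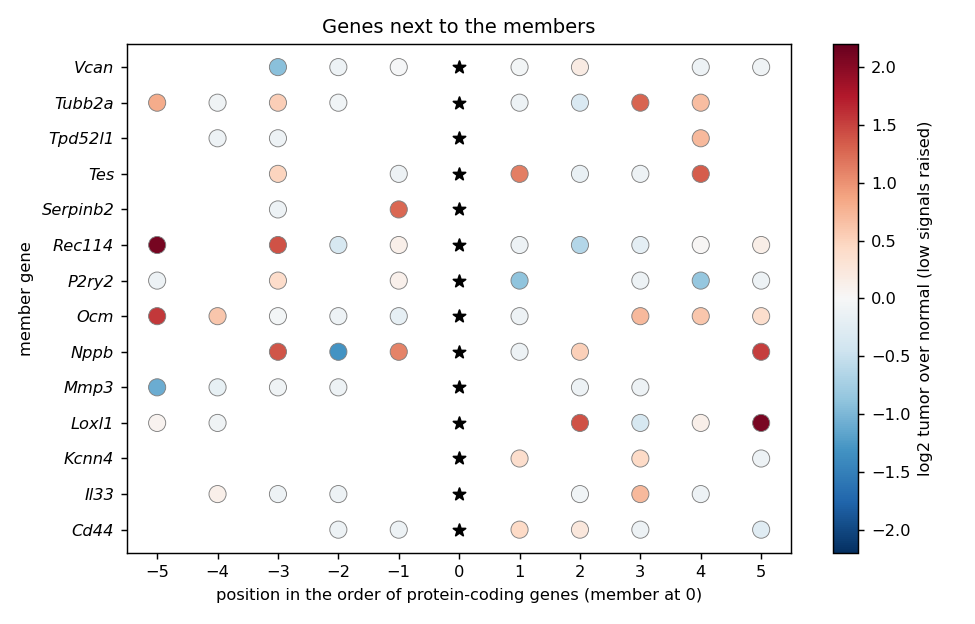
Log2 of the tumor over the normal signal (color, signals raised to the expressed threshold) of genes up to 5 places from each member in the order of protein-coding genes, with the member as a star at 0 and blank places not measured. Most neighbors are near 0, and the darkest points, at -5 of Rec114 and 5 of Loxl1, are these 2 members themselves. The points near 0 include genes below the threshold in every array, for which raised signals cannot show a difference.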

How the data were processed

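Total RNA of 12 cultures was hybridized to 12 RAE230A arrays. The deposited values are intensities, Microarray Suite 5.0 signals. The authors computed them array by array, from perfect and mismatched probes, and set every array to the same mean. The scale is linear, without log transformation or centring. The deposited run records, other text fields of each array, were read for chip lot, scan day and handling of the cells.

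Signals under 1 were set to 1 and log2 was taken. Probe sets among the highest 54% of an array in at least 3 of the 6 tumor arrays were tested, without the 57 controls. This is the share that the study scored as present in normal cells, used here for tumor cells too. Arginine-deficient and arginine-sufficient tumor arrays were compared with limma 3.58.1 in R 4.3.3 (empirical Bayes with an intensity trend, two-sided, Benjamini-Hochberg adjustment, threshold 0.05). Normal arrays were left out of this fit because the members' signals there are near the noise. Values of the tumor cells without arginine are given against the same cells with arginine. P-values without the block rest on the spread between 3 independent cultures per group. Those with the block rest on the spread of the 3 differences within experiments. In both, empirical Bayes draws each variance toward that of probe sets of similar signal. Neither p-value therefore measures the spread of a single gene alone. The standard errors printed are those without the block, and the number of arrays limits the precision. Simulated data were used to test the fit.

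The pairs come from the study's experiments and the run records, where both arrays of a pair share consecutive RNA codes and handling. Deviations from the group means correlated at 0.61, 0.05 and 0.50 within experiments 1, 2 and 3 and at -0.60 to 0.31 between them. Blocked values are printed where they change a call. The members and gene lists were chosen with earlier results of these data known. Every member is named and given in every tumor array, and up to 4 genes of a list that passed the test. Genes were placed by RefSeq (GRCr8), which matched all 14 members by symbol and holds no promoter for Kcnn4 in the table used. For the gene lists and neighbors, each gene is represented by 1 probe set. Python 3.11.15, numpy 2.4.6, pandas 2.3.3 and matplotlib 3.10.9 were used. Alternatives covered the limits of the rule, the filter, an offset of 16, quantile normalization, median centring, the trend, a plain linear model, the fit of all 12 arrays, blocks for experiment and chip lot, and leaving out each array in turn.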

Additional observations from a re-analysis of the deposited data

How the results depend on the processing

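The set depended on its limits. With a tumor limit of 300 in place of 400 there were 22 members, and with 600 there were 8. With a normal limit of 60 in place of 100 there were 7, and with 150 there were 28. Quantile normalization gave 17 and leaving out each of the 12 arrays in turn gave 14 to 18. In place of the 1 member called for arginine, 0 were called with all 12 arrays, without a filter on low signals, with median centring, with a plain linear model, and without both arrays of experiment 2 (an alternative chosen after seeing the data), which called 0 probe sets in all and had 640 at an unadjusted p under 0.05. In the paired fit, which has the experiment as a block, 6 were called. Leaving out each tumor array in turn gave 0 to 1 member. Array 7, 9 or 10 left none, and without array 11 the 1 called was P2ry2 (limma adjusted p = 0.0428) in place of Il33. The adjusted p of Il33 ran from 0.00263 to 0.623 over 17 alternatives and passed in 8. Over all probe sets, 206 were called, against 131 without a filter, 1327 with the block, 6 with a plain linear model and 8 to 245 without 1 array. Median centring moved the split from 115 higher and 91 lower to 139 and 64. The median log2 change of the members was 0.25 within chip lot 4, which has 1 array per medium, -0.13 within lot 3, and -0.23 to 0.088 without 1 tumor array. Within chip lot 4, where the 2 arrays come from different experiments, the log2 change turned sign for Vcan (0.31), Tes (0.18), Tpd52l1 (0.16) and Tubb2a (0.38), and within lot 3 for Cd44 (-0.13), Kcnn4 (0.10) and Ocm (0.34). Other changes that turned sign were those of Tubb2a with median centring (0.047) and without experiment 2 (0.012), Loxl1 without experiment 2 (0.0497), and, without 1 array, Tubb2a (-0.24 to 0.19), Cd44 (-0.076 to 0.16), Ocm (-0.41 to 0.22), Kcnn4 (-0.36 to 0.15), Loxl1 (-0.29 to 0.036) and Tpd52l1 (-0.22 to 0.048). The causes were not tested.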
